A study of Homo sapiens with 6 samples.

Results

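The neurotrophins and their receptors were examined in heart muscle cells derived from human induced pluripotent stem cells (iPS cells). The 7 genes were the ligands BDNF, NTF3 and NTF4, the receptor kinases NTRK2 (TrkB) and NTRK3 (TrkC), the low-affinity receptor NGFR (p75NTR) and its co-receptor SORT1 (sortilin). They were chosen by their function and by differences already seen between the genotypes compared here, so their levels and differences are a description and carry no test. The table listed 35793 genes, and each of the 7 was read from its own row. All 7 passed the filter on low values, a mean of at least 10 normalized counts, which left 15536 genes for testing.

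RNA was measured in 2 groups of 3 libraries each, all from untreated cells on day 15 of cardiac differentiation. The wild-type group came from WTC11, an established pluripotent line, and the knockout group from a WTC11 derivative carrying a homozygous CRISPR/Cas9 disruption of STK25, a kinase of the STRIPAK complex. The knockout was a single line, so the edit cannot be told apart from other differences between the lines. Replicates are described as biological, but no source used here ties them to separate differentiations, and the spread between them may be partly technical.

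Neurotrophins are secreted growth factors made as precursors, which proteases trim to the mature form. Mature BDNF and NTF4 (neurotrophin-4) act on TrkB and NTF3 (neurotrophin-3) mainly on TrkC, and both kinases signal through adaptors to the RAS-ERK and PI3K-AKT cascades. The uncleaved precursors bind p75NTR together with sortilin, a pairing known for promoting cell death. In the heart, BDNF is known for sustaining the coronary vessel wall, and neurotrophin-3 and TrkC for heart development.

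Promoter sequence was taken from RefSeq (GRCh38.p14), which gave 15 windows for 6 of the members, each of 250 bases before an annotated start, and none was matched for NGFR. Each was searched on both strands for the cAMP response element TGACGTCA, for its half-site TGACG or CGTCA, and for the E-box CACGTG. These motifs were searched because BDNF is a textbook target of CREB, which binds the first, and of USF factors, which bind the last. The full element was in 0 of the 15 windows, against 1.65% of all 35116 windows of this length. The half-site, which the full element contains, was in 2 of 15 against 21.2%, and the E-box in 1 of 15 against 6.34%. The windows with a match belonged to BDNF and NTRK2, the ligand and receptor whose levels are set out first below, and are printed here with the matches in capitals. They lie before alternative starts inside the gene, in stretches that hold no GENCODE 29 exon, and the last is printed only up to where an exon begins, while the search covered all 250 bases of each window. A match is a run of letters and not a measured binding site.
NTRK2 (chr9:84670099-84670348, plus strand): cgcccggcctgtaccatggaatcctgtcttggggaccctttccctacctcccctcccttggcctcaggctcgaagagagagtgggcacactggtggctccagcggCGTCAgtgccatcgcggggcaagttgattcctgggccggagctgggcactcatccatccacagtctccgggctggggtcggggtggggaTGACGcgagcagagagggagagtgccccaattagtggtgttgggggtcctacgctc
BDNF (chr11:27720780-27721029, minus strand): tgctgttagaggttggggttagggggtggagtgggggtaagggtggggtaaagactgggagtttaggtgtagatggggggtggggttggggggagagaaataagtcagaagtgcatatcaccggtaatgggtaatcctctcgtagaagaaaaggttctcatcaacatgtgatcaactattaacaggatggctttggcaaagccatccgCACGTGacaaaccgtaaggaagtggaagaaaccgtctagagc
BDNF (chr11:27701634-27701871, minus strand): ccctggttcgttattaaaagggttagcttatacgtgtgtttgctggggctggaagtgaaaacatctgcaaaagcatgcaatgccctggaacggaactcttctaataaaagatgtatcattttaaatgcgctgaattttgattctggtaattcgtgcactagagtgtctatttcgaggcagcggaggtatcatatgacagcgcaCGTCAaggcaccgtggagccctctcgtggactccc
In the NTRK2 window the half-sites began 145 and 56 bases before the start. The E-box began 42 bases before the start in one BDNF window, and in the other the half-site began 47 bases before it.

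The 6 libraries held from 22443904 to 53224112 reads assigned to genes. STK25, which checks the labels, was at 8119 ± 1168 normalized counts in wild-type libraries and 3720 ± 251 in knockout libraries (SD, n = 3 per genotype), with no overlap. Its log2 fold change was -1.12 (SE 0.19, limma, Benjamini-Hochberg adjusted p = 0.00903), and without wild-type replicate 1 the limma adjusted p was 0.0609. The 9 cardiomyocyte markers were all detected, with sums of 1243891 to 1552435 (wild type) and 1799223 to 3292246 (knockout), and of these NKX2-5 fell (log2 fold change -1.71, limma adjusted p = 0.00135). Wild-type replicate 2 and knockout replicate 1 stood apart on the second principal component, which held 24.1% of the variance. Results are given with and without them where they bear on a member. The 2 libraries were picked for standing apart in these same data. Adjusted p values and counts passing without them therefore lean toward passing and are not read at face value. Normalized counts are reads divided by 1 factor per library, and 1 read was worth between 0.638 and 1.51 normalized counts.

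Across the family, transcripts of BDNF and its receptor NTRK2 were higher in the knockout, as was SORT1, while NGFR was lower. NTF3 was slightly lower, NTF4 overlapped between the 2 genotypes, and NTRK3 was scarce in all libraries. The 3 knockout values lay above all 3 wild-type values for 4 members (BDNF, NTRK2, NTRK3 and SORT1) and below them for 2 (NTF3 and NGFR). Only NTF4 overlapped. Over all 15536 genes tested, 16.2% were separated upward and 17.2% downward in this way. These genes were chosen with this contrast known, and nothing is read from the comparison. In whole cultures like these, fewer cells of a type cannot be told apart from less RNA per cell.

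**Figure D1:**
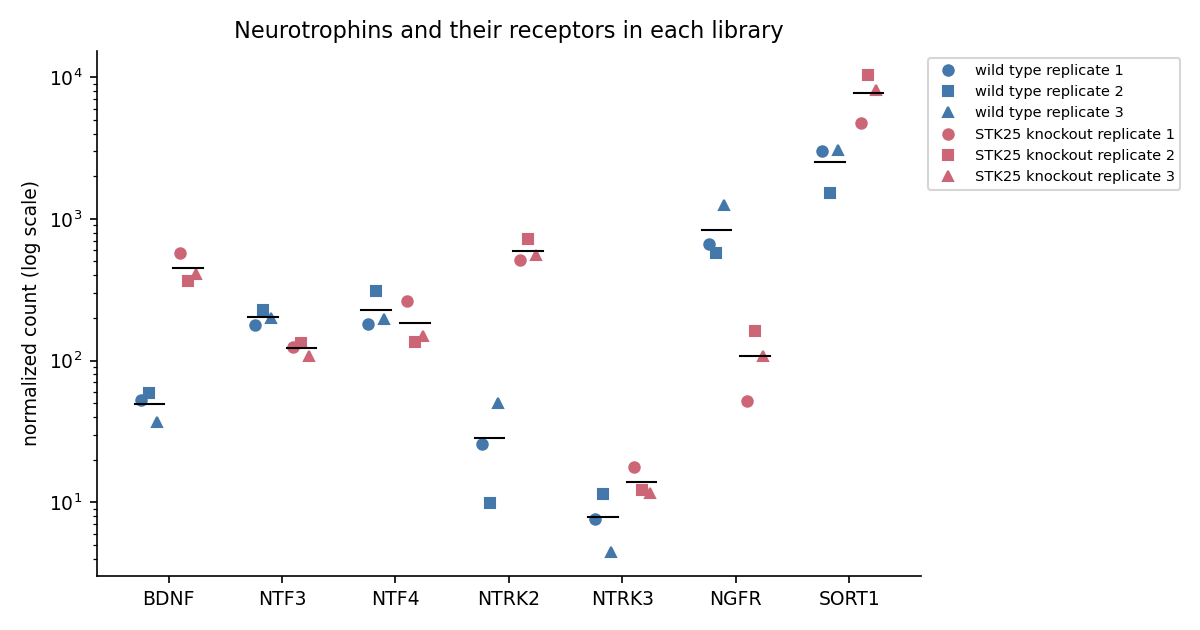
Normalized counts of the 7 genes in each of the 6 libraries, on a log scale. Blue marks are wild-type and red marks knockout libraries, the shape gives the replicate, and black lines are group means. The knockout marks of BDNF and NTRK2 all sit above the wild-type marks, those of NGFR sit below, and those of NTF4 overlap.

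Among the ligands, BDNF, which activates TrkB, showed the largest difference. Its wild-type libraries held 52.9, 58.6 and 37.0 normalized counts in replicates 1, 2 and 3, and its knockout libraries 577, 362 and 406. All knockout libraries were high, and the lowest of them was well over the highest wild-type library. Means were 49.5 ± 11.2 and 448 ± 114 (SD, n = 3 per genotype), a ratio of 9.06. On the log2(normalized count + 1) scale the knockout was higher by 3.15 (SE 0.34), and by 3.09 without the 2 libraries that stood apart. Ranked by absolute log2 difference, BDNF was number 576 of the 15536 genes. BDNF (ENSG00000176697.18) lies on chromosome 11 from 27654893 to 27722058 on the minus strand in GENCODE 29 on GRCh38, the build that the submitters' processing notes name. Its exons overlap those of BDNF-AS on the other strand. Whether strand was used in counting is not given in the sources used here, and BDNF-AS was not analysed here, so reads of the pair cannot be told apart.

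NTF3, the ligand of TrkC, differed in the other direction and by less. The wild-type values were 178, 229 and 200 normalized counts and the knockout values 125, 133 and 108. This member had the tightest replicates, with a coefficient of variation of 12.5% in the wild type and 10.5% in the knockout, and its groups did not overlap. The knockout mean of 122 ± 12.8 was 60.1% of the wild-type mean of 202 ± 25.2 (SD, n = 3 per genotype). The log2 difference was -0.73 (SE 0.28), but -1.01 when libraries were scaled to equal totals and -0.54 after quantile normalization. NTF3 (ENSG00000185652.11) lies on chromosome 12 from 5432112 to 5521536.

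NTF4, the other TrkB ligand, held 181, 311 and 195 normalized counts in the wild type and 264, 136 and 149 in the knockout. The highest library of each genotype was one of the 2 that stood apart, and the ranges overlapped. Its log2 difference of -0.34 (SE 0.37) was smaller than its standard error and ran from -0.64 to -0.10 when each library was left out in turn. NTF4 (ENSG00000225950.8, chromosome 19, 49061066 to 49065054) shares exon sequence with AC008687.8, a coding gene annotated on the same strand. That row held 55.9, 49.5 and 47.2 normalized counts in the wild type and 29.2, 31.2 and 20.4 in the knockout. How reads were divided between the 2 rows cannot be checked from gene totals, so both are uncertain. The rows of the related pseudogenes NTF6A, NTF6B and NTF6G were at 0 reads in all 6 libraries.

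Levels of different genes were compared after division by exon length, in normalized counts per kilobase of annotated exon. In the wild type, NTF4 was the most abundant ligand at 156 ± 48.4, then NTF3 at 69.3 ± 8.63 and BDNF at 6.40 ± 1.45 (SD, n = 3 per genotype), with no overlap between neighbours in that order. In the knockout NTF4 was at 125 ± 48.1, BDNF at 57.9 ± 14.7 and NTF3 at 41.7 ± 4.39 (SD, n = 3 per genotype). There BDNF and NTF3 were separated narrowly, with a lowest BDNF library of 46.8 and a highest NTF3 library of 45.4. With the median length of coding transcripts in place of all exonic bases they overlapped, at 90.2 to 144 for BDNF and 91.0 to 112 for NTF3. BDNF made up 2.81% ± 0.67 of the summed level of the 3 ligands in the wild type and 26.0% ± 1.32 in the knockout (SD, n = 3 per genotype). The sum itself was close in the 2 genotypes, at 232 ± 57.4 and 224 ± 63.2 (SD, n = 3 per genotype).

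**Figure D2:**
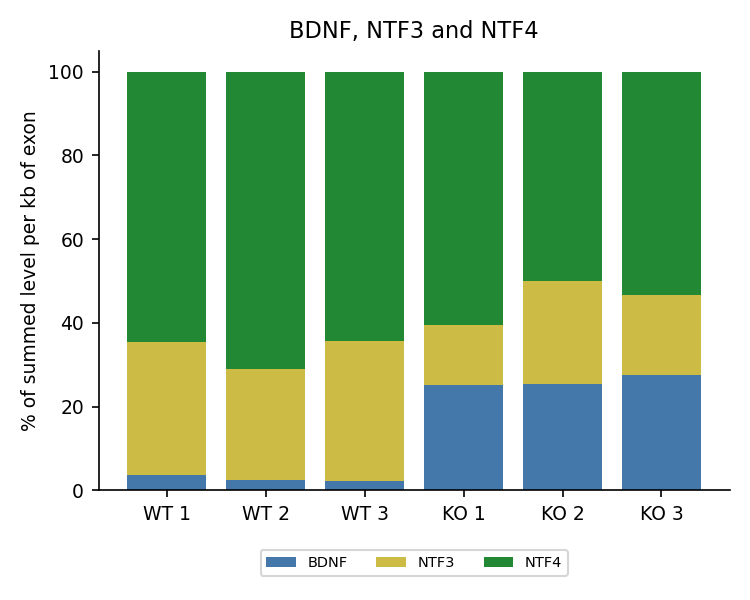
Share of BDNF, NTF3 and NTF4 in their summed level per kilobase of exon, in wild-type (WT) and knockout (KO) replicates 1 to 3. NTF4 is the largest share in all 6 libraries, and the mean BDNF share is 2.81% in the wild type and 26.0% in the knockout.

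The receptor kinase NTRK2, which BDNF and NTF4 bind, had the widest difference of the 7 genes. Wild-type replicates 1, 2 and 3 held 25.7, 9.90 and 49.8 normalized counts, from 17, 13 and 78 reads. The knockout replicates held 510, 717 and 552, from 401, 643 and 621 reads. All knockout libraries were high, while the wild-type libraries were low and varied among themselves, with a coefficient of variation of 70.6% against 18.4% in the knockout. Means of 28.4 ± 20.1 and 593 ± 109 (SD, n = 3 per genotype) gave a ratio of 20.8. The log2 difference of 4.58 (SE 0.55) ranked 234 of 15536, and it was 4.10 without the 2 libraries that stood apart. NTRK2 (ENSG00000148053.15) lies on chromosome 9 from 84668551 to 85027070 on the plus strand. The gene yields both kinase-bearing and truncated receptors, and gene totals do not separate them.

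NTRK3, the receptor for neurotrophin-3, was scarce throughout. Wild-type libraries held 7.55, 11.4 and 4.47 normalized counts and knockout libraries 17.8, 12.3 and 11.6. These came from only 5 to 15 reads in the wild type and 11 to 14 in the knockout, and the highest wild-type and lowest knockout libraries nearly touched. The log2 difference was 0.81 with an SE of 0.67, and it ran from 0.50 to 1.10 when each library was left out in turn. At this depth the difference was close to its own standard error. NTRK3 (ENSG00000140538.16) lies on chromosome 15 from 87859751 to 88256768.

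NGFR, which binds all neurotrophins and their precursors, was the member that was lowest in the knockout relative to the wild type. Its wild-type libraries held 669, 578 and 1258 normalized counts and its knockout libraries 52.1, 163 and 108. The wild-type libraries were all high and the knockout libraries all low, although the values within each genotype varied, with coefficients of variation of 44.2% and 51.5%. Means were 835 ± 369 and 107 ± 55.3 (SD, n = 3 per genotype), so the knockout mean was 12.9% of the wild-type mean. The log2 difference was -3.01 (SE 0.48), number 634 of 15536 by size, and it was -2.78 without the 2 libraries that stood apart. NGFR (ENSG00000064300.8) lies on chromosome 17 from 49495293 to 49515017, and antisense transcripts annotated over its exons were not analysed here.

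SORT1, a sorting receptor that carries precursors through the Golgi and partners p75NTR at the cell surface, was the most abundant member per kilobase. It held 3034, 1514 and 3041 normalized counts in the wild type and 4746, 10418 and 8090 in the knockout. The lowest library of each genotype was one of the 2 that stood apart, and the groups did not overlap. Means were 2530 ± 880 and 7751 ± 2851 (SD, n = 3 per genotype), a ratio of 3.06, with a log2 difference of 1.61 (SE 0.38). The difference was 1.60 without the 2 libraries that stood apart. SORT1 (ENSG00000134243.11) lies on chromosome 1 from 109309568 to 109397951.

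Because NGFR and SORT1 lay in opposite directions, their ratio per kilobase differed more than either gene. The ratio of SORT1 to NGFR was 1.45 ± 0.53 in the wild type and 34.8 ± 6.16 in the knockout (SD, n = 3 per genotype). The ratio of NTRK2 to NGFR per kilobase was 0.00646 ± 0.00257 in the wild type and 1.31 ± 0.59 in the knockout (SD, n = 3 per genotype). Over the receptors, the order per kilobase in the wild type was SORT1 (276 ± 96.0), NGFR (201 ± 88.9), NTRK2 (1.40 ± 0.99) and NTRK3 (0.29 ± 0.13), where SORT1 and NGFR did not differ beyond their spread. In the knockout it was SORT1 (846 ± 311), NTRK2 (29.1 ± 5.37), NGFR (25.9 ± 13.3) and NTRK3 (0.52 ± 0.13), where NTRK2 and NGFR did not differ beyond their spread (SD, n = 3 per genotype). These orders depend on the length used. With the median coding transcript length, which for SORT1 is only 615 bases, the ratio of SORT1 to NGFR was 9.55 ± 3.50 in the wild type and 230 ± 40.7 in the knockout (SD, n = 3 per genotype). Wild-type SORT1 and NGFR were then separated, and wild-type NTRK2 and NTRK3 overlapped.

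**Figure D3:**
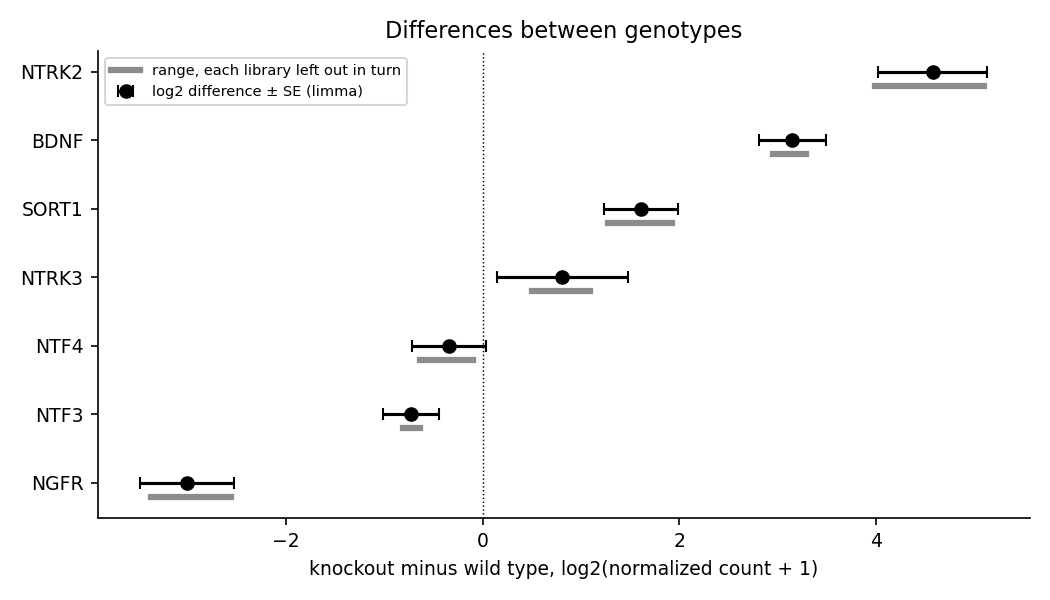
Knockout minus wild type on the log2(normalized count + 1) scale for each member, with limma's standard error as bars and, in grey, the range when each library was left out in turn. NTRK2, BDNF and SORT1 lie to the right at 4.58, 3.15 and 1.61, NGFR lies to the left at -3.01, and all grey ranges keep their side of 0.

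Within genotypes, the members did not vary independently of the library. Wild-type replicate 2 had the highest wild-type value of BDNF, NTF3, NTF4 and NTRK3 and the lowest of NTRK2, NGFR and SORT1. Knockout replicate 1 stood in the same places among the knockout libraries, except for NTF3, where it was second. The part of this library difference in the spread of each member was not tested. Leaving out both libraries, an alternative added after the data were seen, gave log2 differences of -0.66 for NTF3, -0.40 for NTF4 and 0.92 for NTRK3.

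For each member the genes closest to it over the 6 libraries were found by Pearson correlation of log2 values, among genes with a mean of at least 50. The libraries fall into 2 genotypes, 1 library of each stood apart, and all share their depth scaling. A high r therefore says little beyond these shared patterns, and 1002 genes had an r above 0.9 with BDNF. NTF4 overlapped between the genotypes, so for NTF4 a high r does not follow the genotype. The closest to BDNF were ANXA2 (r = 0.9995), a membrane-binding annexin, CKB (r = 0.998), the brain-type creatine kinase, and MGARP (r = 0.998). MGARP had means of 82.0 ± 22.2 in the wild type and 1555 ± 319 normalized counts in the knockout (SD, n = 3 per genotype). NTRK2 was closest to AEBP1 (r = 0.999), GABRP (r = 0.998) and TTC9 (r = 0.997). For NGFR they were WNT5B (r = 0.999), a Wnt ligand, POLQ (r = 0.999), a DNA repair polymerase, and RNF157 (r = 0.997), and for SORT1 they were ZNF143 (r = 0.9996), ACSS2 (r = 0.999) and CAMK2D (r = 0.999), the main cardiac isoform of CaM kinase. NTF3 was nearest to SNUPN (r = 0.994), ANKRD18B (r = 0.994) and RARG (r = 0.993). NTF4 was nearest to NME1 (r = 0.997), DMAC1 (r = 0.996) and SOX12 (r = 0.995), and NTRK3 to DNAJC3 (r = 0.995), SMC5 (r = 0.993) and SLC35D2 (r = 0.992).

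Other genes of the pathway were tested with limma in the fit over all 15536 genes, in lists set up by function. Of 89 tested genes in 7 lists, 10 passed at a Benjamini-Hochberg adjusted p under 0.05. The knockout was higher for 4 and lower for 6. Over all genes tested 12.8% passed, 5.97% higher and 6.79% lower. Of the genes that passed, 46.8% were higher, but only 27.4% when libraries were scaled to equal totals, which shifted the median over all genes from 0.01 to -0.27 (log2 scale). In each of the 10 pathway genes the genotypes did not overlap. Genes picked by a low p tend to separate in this way, so this adds no support. Leaving out each library in turn, 4 of the 10 kept an adjusted p under 0.05 in all 6 fits, namely SORCS1, LINGO1, RTN4R and APH1B.

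Relatives of sortilin stood in a list of 6 further family genes, of which 4 were tested and 1 passed. SORCS1, a receptor with the same VPS10 domain as sortilin, fell from 459, 263 and 322 normalized counts to 2.54, 4.46 and 6.22. Its log2 fold change was -6.03 (SE 0.48, limma adjusted p = 0.000398), opposite in sign to the difference of SORT1. SORCS3, at 188 ± 78.8 and 27.6 ± 39.5 (SD, n = 3 per genotype), and SORL1, at 240 ± 57.4 and 77.5 ± 39.9 (SD, n = 3 per genotype), had log2 fold changes of -4.25 and -1.76 and did not pass (limma adjusted p = 0.0863 and 0.0604). The size for SORCS3 depended on the method, at -2.76 with DESeq2, -2.74 with edgeR and -2.64 with limma without knockout replicate 1. Without knockout replicate 3 SORCS3 was at -5.74 with a limma adjusted p of 0.0296, and with DESeq2 the adjusted p of SORL1 was 0.00903. SORCS2, named after its values were seen, was too low to test. It had no read in any knockout library and was at least 4.65-fold lower there, taking 3 reads per library as the floor.

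The co-receptors, adaptors and cleavage enzymes of p75NTR had 18 tested genes, of which 3 passed and were all lower in the knockout, with a median of -0.08. LINGO1, a co-receptor of p75NTR, fell from 513 ± 149 to 15.5 ± 7.55 normalized counts (SD, n = 3 per genotype; log2 fold change -5.01, SE 0.44, limma adjusted p = 0.000588). RTN4R, the Nogo receptor that joins LINGO1 and p75NTR in a complex, held 227, 249 and 190 normalized counts in the wild type and 39.4, 41.2 and 31.1 in the knockout. Its log2 fold change was -2.54 (SE 0.33, limma adjusted p = 0.00307). APH1B, a subunit of the gamma-secretase that cuts p75NTR, had a log2 fold change of -2.35 (SE 0.33, limma adjusted p = 0.00382). The abundant adaptors BEX3 (-0.08, limma adjusted p = 0.924), MAGED1 (-0.39, limma adjusted p = 0.526) and BEX1 (-0.77, limma adjusted p = 0.211) did not pass, and BEX3 was positive without wild-type replicate 2 or knockout replicate 2. Without knockout replicate 1 BEX1 was at -1.11 with a limma adjusted p of 0.0480.

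Below the Trk receptors, 1 of 19 tested adaptors passed. GRB2, the adaptor that links Trk receptors to RAS, rose from 5427 ± 143 to 9024 ± 390 normalized counts (SD, n = 3 per genotype; log2 fold change 0.73, SE 0.16, limma adjusted p = 0.0255). Its limma adjusted p rose to 0.121, 0.111, 0.0756 and 0.116 when the fit left out wild-type replicate 1, wild-type replicate 3, knockout replicate 2 or knockout replicate 3, and with equal totals it was 0.166. PTPN11 (-0.26), KIDINS220 (-0.03) and CRK (0.13) did not pass (limma adjusted p = 0.441, 0.960 and 0.791). The list median was 0.04.

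In the RAS-ERK, PI3K-AKT and ERK5 cascades 1 of 21 genes passed, and the median was 0.20. BRAF, a RAF kinase (chromosome 7, 140719327 to 140924928), fell from 547 ± 74.3 to 213 ± 60.3 normalized counts (SD, n = 3 per genotype; log2 fold change -1.39, SE 0.28, limma adjusted p = 0.0187). Leaving out replicate 1 or 3 of the wild type, or replicate 2 or 3 of the knockout, its limma adjusted p was 0.0675, 0.0854, 0.0617 and 0.0751. AKT1, a central kinase of the survival pathway, had a log2 fold change of 0.40 and did not pass (limma adjusted p = 0.544, or 0.0216 without the 2 libraries that stood apart).

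Early response genes that Trk and ERK signalling can induce passed in both directions, with 3 of 9 tested genes passing and a median of -0.38. DUSP6, an ERK phosphatase, rose from 1205 ± 151 to 2989 ± 727 and SPRY4, a feedback inhibitor, from 267 ± 104 to 748 ± 108 normalized counts (SD, n = 3 per genotype). Their log2 fold changes were 1.29 (SE 0.24, limma adjusted p = 0.0138) and 1.55 (SE 0.33, limma adjusted p = 0.0221). EGR1, an immediate early transcription factor, fell from 113 ± 3.00 to 16.6 ± 13.7 normalized counts (SD, n = 3 per genotype), with a log2 fold change of -2.97 (SE 0.59, limma adjusted p = 0.0163). JUNB (0.61), SPRY2 (-0.43) and NR4A1 (-0.19) did not pass (limma adjusted p = 0.0871, 0.318 and 0.676). The adjusted p of JUNB was 0.0226 with DESeq2 and 0.0139 with limma without the 2 libraries that stood apart. Without wild-type replicate 1 the limma adjusted p was 0.0554 for DUSP6, 0.0842 for SPRY4 and 0.0773 for EGR1, and without knockout replicate 3 it was 0.0659, 0.0915 and 0.0623. Without wild-type replicate 3 it was 0.0514 for DUSP6 and 0.0694 for EGR1, without knockout replicate 2 it was 0.0668 for SPRY4, and with equal totals it was 0.0865 for DUSP6 and 0.0815 for SPRY4.

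Of 13 tested regulators of BDNF transcription 1 passed, with a list median of 0.22. MEF2C, a muscle and neuronal transcription factor, rose from 3299 ± 598 to 7239 ± 1082 normalized counts (SD, n = 3 per genotype; log2 fold change 1.14, SE 0.22, limma adjusted p = 0.0138). Leaving out replicate 3 of the wild type or of the knockout gave a limma adjusted p of 0.0519 or 0.0600, and equal totals gave 0.0939. REST (0.37), a repressor of neuronal genes, NFKB1 (0.22) and CREB1 (-0.34) did not pass (limma adjusted p = 0.241, 0.733 and 0.512). Of the proteases that trim neurotrophin precursors, 5 were tested with limma and 0 passed, and 1 passed with DESeq2 and 0 with edgeR. At an unadjusted limma p under 0.05 were 3 of the 5, against 27 of the 89 pathway genes and 4275 of all 15536 genes tested. FURIN was at 1759 ± 392 and 1504 ± 249 and PCSK7 at 1855 ± 541 and 2751 ± 131 normalized counts (SD, n = 3 per genotype; limma adjusted p = 0.629 and 0.156). PLAT, the tissue plasminogen activator, was at 150 ± 8.69 and 386 ± 248 (SD, n = 3 per genotype; limma adjusted p = 0.310), and without knockout replicate 1 its limma adjusted p was 0.00765.

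**Figure D4:**
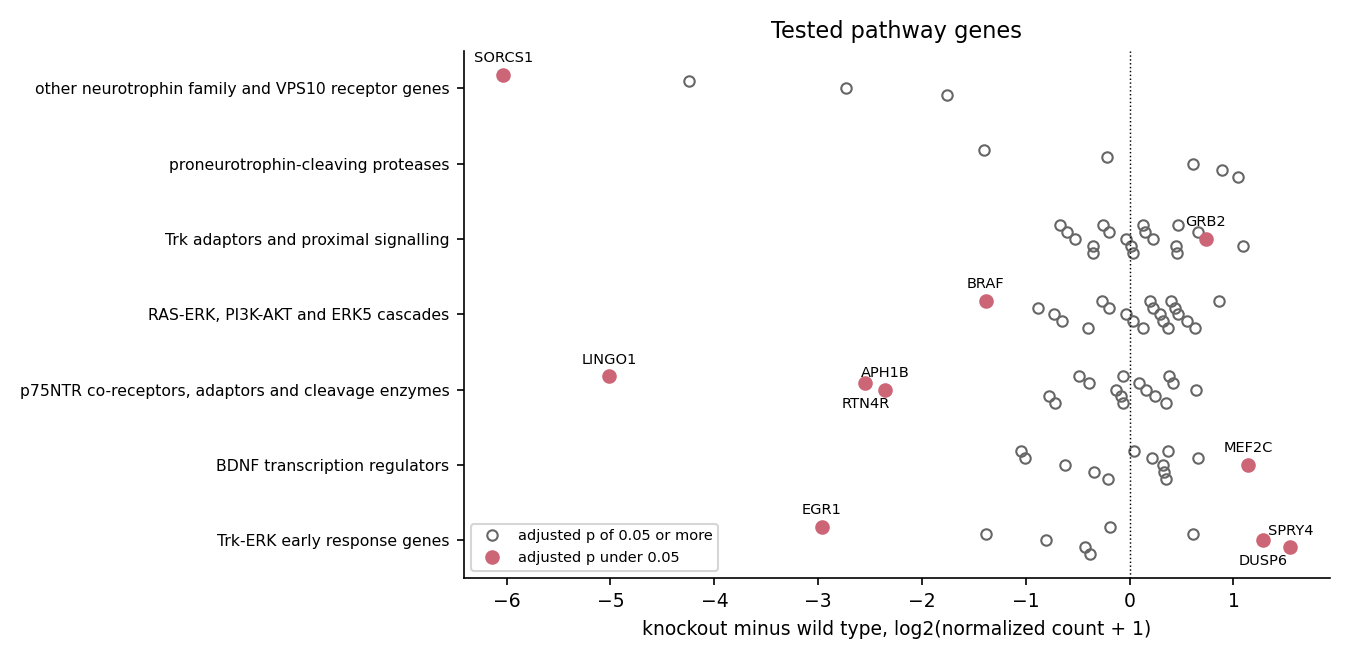
Log2 fold change (knockout minus wild type) of each tested pathway gene, by list. Filled red marks had a limma adjusted p under 0.05 and are named, and open marks did not pass. Only 10 of 89 marks are filled, among them SORCS1 at -6.03 and LINGO1 at -5.01.

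Neurotrophin receptors also mark other cell types that such cultures can hold, so marker lists were measured beside them. The 7 neural crest and Schwann markers summed to between 195 and 350 normalized counts in the wild type and between 52.1 and 70.2 in the knockout, in the direction of NGFR. Most of that sum was ERBB3, at 298, 153 and 326 in the wild type and 36.9, 41.2 and 63.1 in the knockout. The defining marker SOX10 was at 0 reads in all 6 libraries. Of the list 2 genes were tested and both fell, S100B and ERBB3 (log2 fold changes -3.32 and -2.40, limma adjusted p = 0.0261 and 0.0104). FOXD3 and TFAP2A, too low to test, had higher means in the knockout (6.01 against 0.851 and 3.77 against 1.51 normalized counts), and FOXD3 did not overlap between the genotypes. Several lists had higher sums in all 3 knockout libraries, in the direction of NTRK2 and BDNF, among them the cardiomyocyte and neuron lists, smooth muscle, at 79383 to 89832 (wild type) and 491950 to 539638 (knockout), and epicardial, from 249 to 332 and from 1111 to 1298. Of the 9 cardiomyocyte genes 0 passed as higher, and MYL7 was a large part of the sum. MYL7, MYH7, ACTN2 and TTN were higher in all 3 knockout libraries, NKX2-5 and MYH6 were lower, and the others overlapped. All 5 smooth muscle genes rose and 2 of 6 tested epicardial genes rose, TCF21 and ALDH1A2 (log2 fold changes 5.28 and 5.19, limma adjusted p = 0.00952 and 0.0141), with MSLN at most 3 reads throughout.

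Neuron markers summed to between 593 and 660 normalized counts in the wild type and between 1002 and 1327 in the knockout. Of these TUBB3 rose (log2 fold change 2.99, limma adjusted p = 0.00997), the other 4 tested did not pass, and PRPH was at 0 reads. TUBB3, with means of 62.3 and 449 normalized counts, was a large part of the difference in the sums. Of the other 4, MAP2 was at -0.22 and SYN1, SNAP25 and ELAVL4 at 0.28, 0.43 and 1.87. Among genes too low to test, DCX was lower in all 3 knockout libraries and STMN2 had a lower mean there. ELAVL3 and ISL2, also too low to test, had higher means in the knockout. Among 4 tested neural progenitor markers SOX2 and PAX6 rose (log2 fold changes 5.81 and 3.28, limma adjusted p = 0.00256 and 0.0364), SOX1 was at most 3 reads throughout, and the sums ran from 4514 to 7787 and from 6702 to 16438. Most of each sum was NES, which overlapped between the genotypes and did not pass (limma adjusted p = 0.340). FABP7 was at -2.38 and did not pass (limma adjusted p = 0.191). POU3F2, too low to test, had a lower mean in the knockout (1.78 against 9.25 normalized counts). Fibroblast markers ran from 12921 to 26527 and from 7764 to 16290, with 2 of 8 higher and 1 lower, and endothelial markers from 1261 to 1382 and from 1376 to 2139 with CDH5 at most 3 reads throughout. Endoderm and liver markers ran from 1671 to 3009 and from 1205 to 1252, also in the direction of NGFR, with FOXA2 at 0 reads. Of 3 tested AFP fell (log2 fold change -5.21, limma adjusted p = 0.00661). APOA1, which made up most of the sum, and TTR did not pass (limma adjusted p = 0.136 and 0.0996). ALB, SOX17 and HNF4A, too low to test, had higher means in the knockout. The part of any of these cell types in the levels of the 7 genes was not tested.

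**Figure D5:**
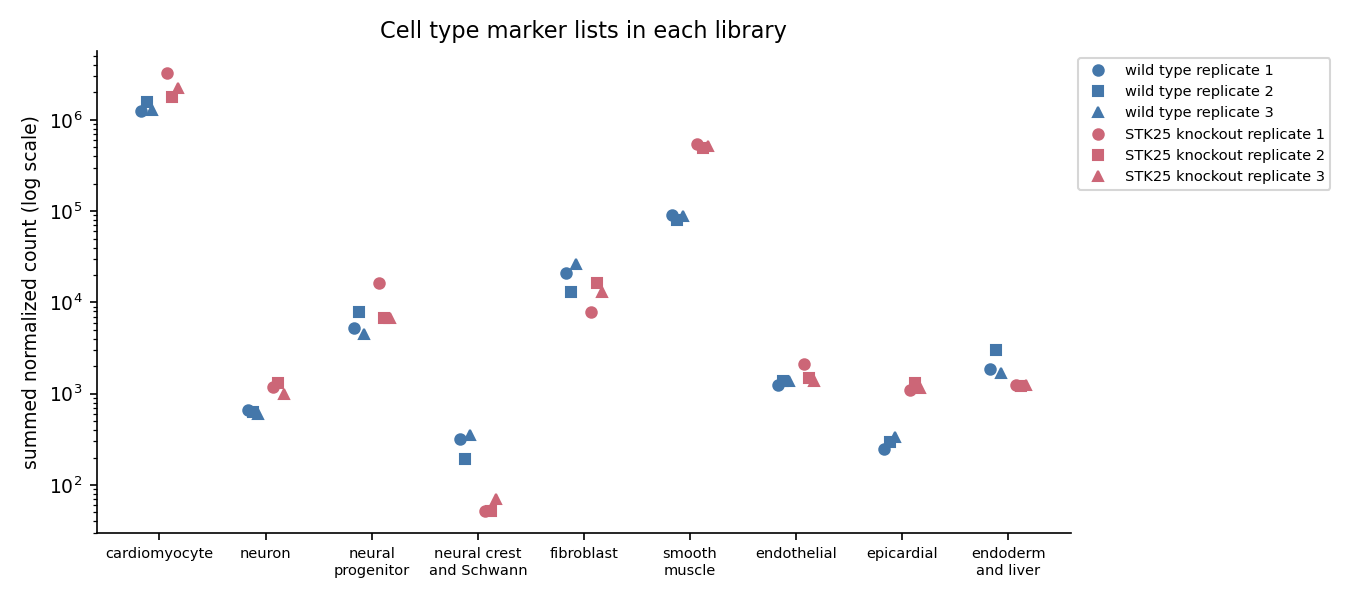
Summed normalized counts of the marker genes of 9 cell types in each library, on a log scale, with wild-type libraries in blue and knockout libraries in red. The neural crest and Schwann sums and the endoderm and liver sums are lower in all 3 knockout libraries, and the smooth muscle, epicardial and neuron sums are higher.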

How the data were processed

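Values were the authors' deposited signal table of normalized counts, 1 row per gene symbol and 6 libraries. Per the submitters' processing notes, bcl2fastq 2.19, kallisto 0.44.0, DESeq2 1.28.1 and GRCh38 were used; their roles, the annotation and strand use are not given in the sources used here. All values (100%, tolerance 0.0001) were whole multiples of 1 step per library, so whole numbers of reads were recovered. Such reads are estimates where transcripts are shared, and counting error is the only error that floors of 3 reads cover. Replicates differed by far more than sampling noise (chi-square over degrees of freedom from 18.9 to 363). Columns were matched by the names in the labels, and 0 were unused.

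Pathway genes were tested in R 4.3.3 with limma 3.58.1 (trend) on log2(value + 1), which understates folds of low genes, over genes with a mean of at least 10, with Benjamini-Hochberg adjustment over all of them and a threshold of 0.05. The 7 members got no test. The members and lists were chosen with earlier results of these data known. Genes named are the members, STK25, per list up to 6 that passed and up to 3 abundant ones that did not, and the 3 genes closest to each member. Markers that passed are named beside their lists, except smooth muscle and fibroblast markers, which are only counted. Some genes that this rule names are not reported here. Exon lengths and positions came from GENCODE 29, and promoters from RefSeq.

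Alternatives were pseudocounts of 0.1 and 10, an unfiltered table or a minimum mean of 50, 3 other scalings, a replicate block, robust eBayes and eBayes with no trend, edgeR 4.0.16 and DESeq2 1.42.0 on the recovered reads, and each library left out in turn. The fit was tested on simulated data. An adjusted p that misses the threshold does not show that levels were equal. Figures used Python 3.11.15 and matplotlib 3.10.9.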

Additional observations from a re-analysis of the deposited data

How the results depend on the processing

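All 7 members kept the sign of their log2 difference under all 19 alternatives. Of 132 member values 130 moved by under 1 SD between replicates, and the others were NTF3 with equal totals (-1.01) and quantile normalization (-0.54). The filters, the eBayes settings and the replicate block leave these differences as they are by construction, so the tally overstates how much was varied. NTRK3 has no value with a mean of at least 50, and depth limits it most. The count of genes passing was 1982, 3210 with DESeq2 and 4483 without both libraries that stood apart, and ran from 796 to 2181 with 1 library left out.

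Counts passing per list were 1 for family genes, 0 for proteases, 1 for Trk adaptors, 1 for cascades, 3 for p75NTR partners, 1 for BDNF regulators and 3 for early response genes. With DESeq2 family genes had 3, proteases 1, cascades 5, p75NTR partners 5, BDNF regulators 2 and early response genes 4. Without both libraries that stood apart family genes had 4, proteases 3, Trk adaptors 2, cascades 9, p75NTR partners 6, BDNF regulators 2 and early response genes 4. With equal totals Trk adaptors and BDNF regulators had 0, cascades 2 and early response genes 1. Cascades had 2 with edgeR, equal upper quartiles, a mean of at least 50, a pseudocount of 10 and quantile normalization. Family genes had 2 with equal upper quartiles or no filter and 3 with a pseudocount of 10, proteases 1 with no filter, and Trk adaptors 0 without a trend or with quantile normalization. With 1 library left out the ranges were 1 to 2 for family genes, 0 to 1 for proteases, Trk adaptors and BDNF regulators, 0 to 2 for cascades and 0 to 3 for early response genes.

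No common pairing by replicate number was seen. Deviations of same-numbered samples correlated at -0.23, -0.40 and 0.17. With 3 libraries per genotype these values cannot settle whether the numbers mark shared batches. With the replicate block 798 genes passed, STK25 was at -1.12 with a limma adjusted p of 0.0684, cascades, Trk adaptors and BDNF regulators had 0 and early response genes 1. STK25 was at -1.05 without wild-type replicate 1, from -1.24 to -1.05 with 1 library left out, and at -1.279 without both libraries that stood apart.

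Of 532 values for 28 named pathway genes 479 kept sign and side of the threshold, 30 lost and 13 gained it, and 10 changed sign, all for genes that had not passed. With equal totals CRK was at -0.15 and NFKB1 at -0.066. NFKB1 was at -0.014 without both libraries that stood apart. With 1 library left out ranges crossed 0 for BEX3 (-0.42 to 0.24), CRK (-0.033 to 0.31), KIDINS220 (-0.28 to 0.19) and NFKB1 (-0.14 to 0.43).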
